A study of Rattus norvegicus with 8 samples.

Results

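Glycolysis in skeletal muscle is run by enzymes that exist as isoforms, and the data here cover 10 such genes in adult rat extraocular muscle, which turns the eye, in its orbital and global layers. The genes are Pfkm, Pfkfb1, Fbp2, Aldoa, Aldoc, Tpi1, Pgam2, Pgam1, Eno3 and Eno1. They were taken as every probe set annotated to exactly 1 of these symbols, and this gave 11 probe sets for the 10 genes, of 10411 genes with a probe set of their own. The genes were chosen by their measured intensities in orbital against global captures, so their layer differences and isoform ratios are given as a description and carry no test. The orbital layer faces the bone of the orbit and the global layer faces the eyeball. The 4 orbital captures and the 4 global captures came from untreated adult rat muscle cut out by laser, and the labels state neither strain, sex nor exact age. Each capture was amplified with a T7-based method and hybridised to 1 rat RAE230A array. The labels do not tie captures to animals, so captures may share an animal, and p-values over captures are then too small. In whole tissue captures, fewer cells of a type and less RNA per cell cannot be told apart.

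Glycolysis splits glucose into pyruvate and yields ATP without oxygen. Phosphofructokinase (Pfkm in muscle) commits fructose 6-phosphate to the pathway, and fructose bisphosphatase (Fbp2 in muscle) runs that step backwards. Aldolase and triose phosphate isomerase (Tpi1) make and interconvert the triose phosphates, and phosphoglycerate mutase and enolase carry out steps near the end. Mutase and enolase each have a muscle form (Pgam2, Eno3) and a widely expressed form (Pgam1, Eno1), and in developing muscle the muscle form takes over from the widely expressed one. Fast-contracting fibres are known for high levels of glycolytic enzymes.

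The mutase and enolase isoforms differed in opposite directions between the layers, and their promoters are shown here because they belong to those genes. RefSeq promoter windows of build GRCr8, from 250 bases before to 50 bases after the annotated start, were matched by symbol for 9 of the 10 genes and hold 12 windows. Capitals mark a match to ACGTG on either strand, the core of the motif bound by hypoxia-inducible factors. The MEF2 motif, that of a muscle transcription factor family, was searched as well, as YTAWWWWTAR on both strands. There Y is C or T, W is A or T and R is A or G. Only exact matches were counted, so a site that departs from the pattern was missed. The windows printed hold no match to it, so all capitals in them mark ACGTG. The Pgam2 window is chr14:84897825-84898124 (minus strand), that of Pgam1 is chr1:250672902-250673201 (plus strand) and that of Eno3 is chr10:55868936-55869235 (plus strand). Eno1 has windows at chr5:166002617-166002916 and chr5:166003111-166003410 (plus strand).
Pgam2: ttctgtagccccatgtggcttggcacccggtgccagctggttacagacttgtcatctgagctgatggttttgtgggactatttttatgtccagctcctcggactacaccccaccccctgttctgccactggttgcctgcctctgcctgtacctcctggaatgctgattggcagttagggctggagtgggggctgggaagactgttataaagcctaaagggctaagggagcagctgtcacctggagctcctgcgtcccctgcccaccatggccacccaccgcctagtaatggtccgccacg
Pgam1: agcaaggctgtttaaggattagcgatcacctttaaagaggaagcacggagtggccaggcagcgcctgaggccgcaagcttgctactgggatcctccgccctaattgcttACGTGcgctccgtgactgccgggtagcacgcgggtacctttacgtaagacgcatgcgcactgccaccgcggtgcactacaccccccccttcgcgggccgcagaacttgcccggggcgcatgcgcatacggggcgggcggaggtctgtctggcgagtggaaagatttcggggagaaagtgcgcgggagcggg
Eno3: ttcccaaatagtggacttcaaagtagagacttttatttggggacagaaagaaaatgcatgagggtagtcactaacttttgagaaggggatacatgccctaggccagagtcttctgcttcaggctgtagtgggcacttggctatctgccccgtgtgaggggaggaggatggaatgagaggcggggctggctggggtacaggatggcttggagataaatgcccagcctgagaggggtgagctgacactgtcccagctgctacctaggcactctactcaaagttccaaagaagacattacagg
Eno1, start 1: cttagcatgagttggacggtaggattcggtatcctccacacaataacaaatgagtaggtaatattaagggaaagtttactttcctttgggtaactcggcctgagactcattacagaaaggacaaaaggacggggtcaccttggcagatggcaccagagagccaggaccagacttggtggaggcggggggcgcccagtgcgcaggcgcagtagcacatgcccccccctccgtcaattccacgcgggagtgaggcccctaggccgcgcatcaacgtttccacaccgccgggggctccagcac
Eno1, start 2: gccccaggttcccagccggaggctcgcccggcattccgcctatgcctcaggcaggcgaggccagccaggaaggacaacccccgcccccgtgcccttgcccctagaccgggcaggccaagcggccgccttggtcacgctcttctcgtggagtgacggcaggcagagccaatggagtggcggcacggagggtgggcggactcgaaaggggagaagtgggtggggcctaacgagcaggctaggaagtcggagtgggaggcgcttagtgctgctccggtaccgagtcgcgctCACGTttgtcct

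Among the windows printed, Pgam1 holds ACGTG 141 bases before the start and the second window of Eno1 holds it 38 bases after the start, and it does not occur in the windows of Pgam2 and Eno3. Over the 9 genes with a window ACGTG occurs in 5 of the 12 windows, in Pfkm, Aldoa, Aldoc, Pgam1 and Eno1. Of all 33469 promoter windows 19.3% hold it. No window was matched for Fbp2, so its promoter was not searched. The MEF2 motif occurs in 1 of the 12, a window of Aldoa, against 3.29% of all windows. A match is only a run of letters and says nothing about binding.

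Fbp2, the fructose bisphosphatase of muscle, showed the largest layer difference of the 10 genes. Its probe set read 32.1, 9.5, 50.6 and 61.3 in orbital captures 1 to 4, against 268.5, 253.3, 429.9 and 250.8 in the global captures. Every orbital capture lay far below every global one. Orbital captures averaged 38.4 ± 22.7 and global captures 301 ± 86.5 (SD, n = 4 each), which is -3.18 ± 0.43 (SE) in log2, or 9.03-fold lower. Differences are log2(intensity + 1) of the orbital minus the global layer, with n = 4 captures per layer and the SE from limma. Orbital capture 2 lay under the highest of the 27 Bacillus control probe sets of its array (24.1), so the size of the difference rests in part on dim signal, and it was -1.83 with a pseudocount of 64. The mean of the orbital captures was under the intensity used as a filter (39.4), so Fbp2 was tested only through its global level.

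Pfkm and Pfkfb1, which run or regulate the step that Fbp2 reverses, had lower means in the orbital layer, by much less than Fbp2. Pfkm read 2907.2, 2099.6, 2535.4 and 3026.6 in the orbital captures, against 3469.6, 2930.4, 4747.1 and 3893.3 in the global captures. The lowest global capture fell within the orbital range, and the difference was -0.50 ± 0.17. A second, dimmer Pfkm probe set differed by -0.76 ± 0.34 and also overlapped. Pfkfb1, which makes and removes fructose 2,6-bisphosphate, the activator of phosphofructokinase, read 180.7, 248.4, 206.4 and 270.3 in the orbital and 339.1, 324.6, 461.1 and 376.1 in the global captures. These groups did not overlap, and the difference was -0.73 ± 0.16. Within each array, the log2 ratio of Fbp2 to Pfkm was -6.33 ± 0.96 (SD) in orbital and -3.66 ± 0.22 in global captures, a difference of -2.67 ± 0.49 (SE). That ratio was formed after the values were seen. Probe sets differ in brightness, so a ratio of intensities is no ratio of transcripts, and only its difference between captures can be read.

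Triose phosphate isomerase was lower in the orbital layer, while the aldolases overlapped. Tpi1 read 2207.2, 1581.8, 2028.7 and 1918.1 in the orbital captures, against 3962.4, 3228.6, 4317.6 and 3505.6 in the global captures, with a wide gap between the layers and a difference of -0.96 ± 0.14. Aldoa, the aldolase of muscle and many other tissues, averaged 5642 ± 831 in orbital captures and 6993 ± 818 in global captures (SD, n = 4 each), a difference of -0.31 ± 0.15, and orbital capture 1 (6787.8) lay among the global captures. Aldoc, the aldolase known from brain, was dim and uneven, with 62.1, 38.3, 80.5 and 79.6 in the orbital and 97.2, 17.1, 37.1 and 17.0 in the global captures (0.94 ± 0.48). Global capture 1 was its highest capture, and global captures 2 and 4 lay under the highest Bacillus control of their arrays. Aldoc was in the test only through its orbital level. Global capture 1 was also the highest of the 8 for Eno2, the enolase of neurons (192.4, against 93.8 to 157.7 in the other captures). The summed intensity of nerve and Schwann cell markers was lowest in that capture (339.9, against 347.4 to 935.7 in the other captures). A part of nerve tissue in these values was not tested.

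**Figure D1:**
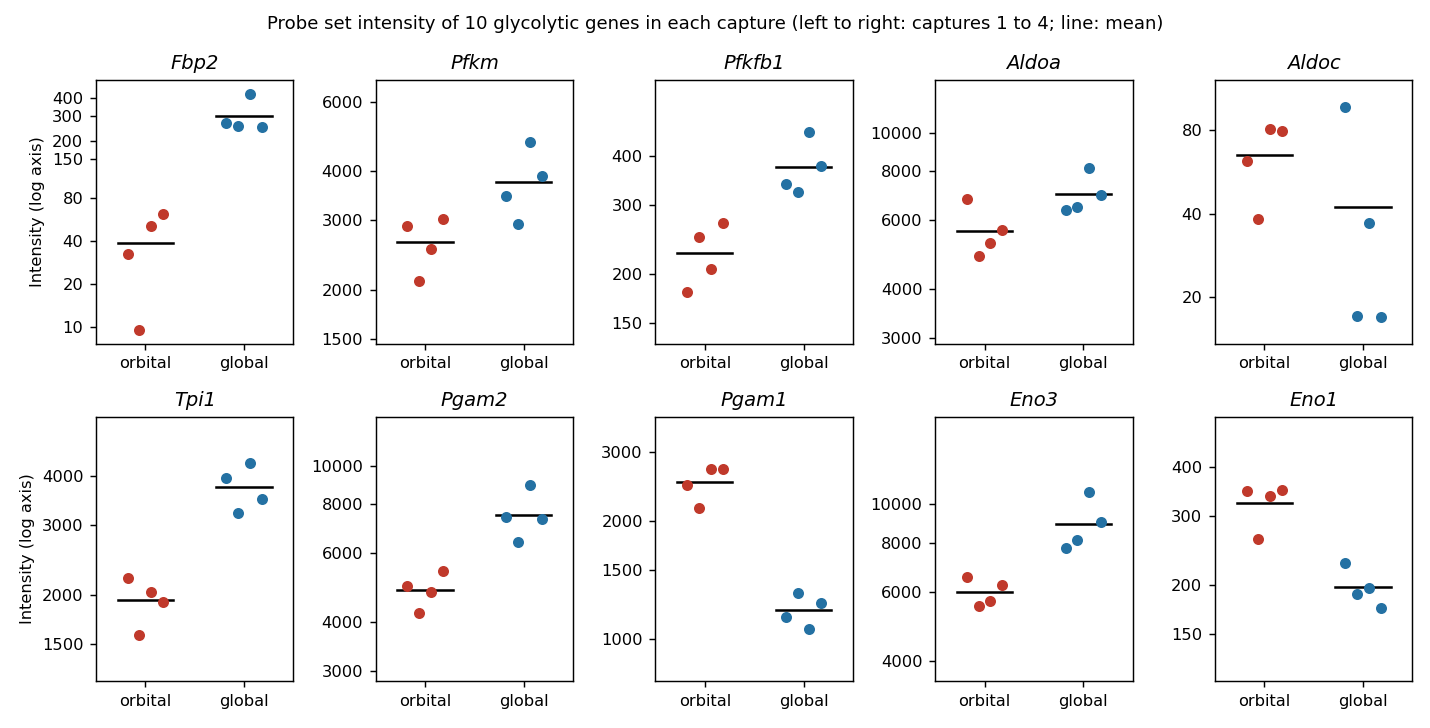
Intensity of the brightest probe set of each gene in every capture, on a log axis, with the 4 orbital captures (red) left of the 4 global captures (blue) and a line at each mean. Fbp2, Tpi1, Pgam2, Eno3 and Pfkfb1 lie lower in every orbital capture than in any global one, Pgam1 and Eno1 lie higher, and Pfkm, Aldoa and Aldoc overlap.

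The isoforms of phosphoglycerate mutase differed in opposite directions. Pgam2, the muscle form, read 4951.6, 4218.2, 4778.3 and 5378.7 in the orbital captures, against 7411.0, 6386.1, 8922.5 and 7295.1 in the global captures (-0.63 ± 0.14). Pgam1, the widely expressed form, went the other way, with 2470.4, 2160.7, 2705.1 and 2708.8 in the orbital and 1136.1, 1313.1, 1062.6 and 1234.6 in the global captures (1.08 ± 0.125). Neither gene overlapped between layers, and the Pgam1 level was 2.11-fold higher in the orbital layer. The ratio of Pgam2 to Pgam1 intensity was 2, 1.95, 1.77 and 1.99 in orbital captures, against 6.52, 4.86, 8.40 and 5.91 in global captures. On the log2 scale the ratio averaged 0.94 ± 0.08 over orbital captures and 2.65 ± 0.33 over global captures (SD, n = 4 each), a difference of -1.71 ± 0.17 (SE), or 3.27-fold lower. The 4 orbital ratios were close together and the global ones were spread more widely.

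Enolase showed the same arrangement. Eno3, the muscle form, read 6527.5, 5533.2, 5682.7 and 6243.3 in the orbital captures, against 7747.5, 8098.4, 10724.9 and 9034.9 in the global captures (-0.56 ± 0.14). Eno1, the widely expressed form, read 347.6, 262.5, 336.1 and 349.5 in the orbital and 228.2, 189.4, 196.9 and 174.6 in the global captures (0.71 ± 0.14). The layers did not overlap for either gene. The log2 ratio of Eno3 to Eno1 averaged 4.21 ± 0.13 over orbital captures and 5.48 ± 0.31 over global captures (SD, n = 4 each), a difference of -1.27 ± 0.17 (SE), or 2.41-fold lower, and the highest orbital ratio stayed 0.69 below the lowest global one. The aldolase ratio, Aldoa to Aldoc, differed by -1.25 ± 0.64 and overlapped, since global capture 1 (6.02) lay beside the lowest orbital captures (6.01 and 6.14). A ratio within an array is free of the scaling of that array. It shows that the isoforms changed unequally, and for mutase and enolase the intensities above show both sides.

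**Figure D2:**
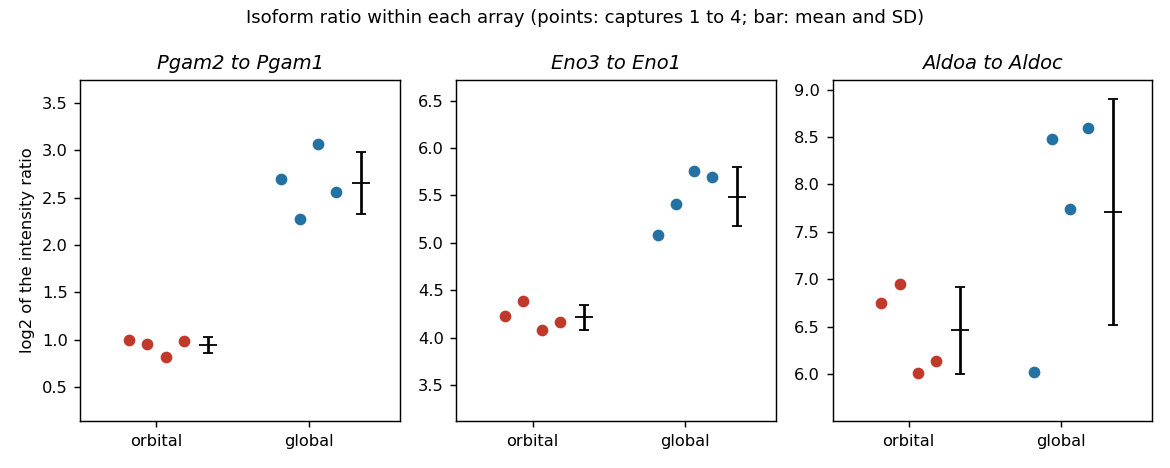
Log2 of the intensity ratio of the muscle to the widely expressed isoform (for aldolase, Aldoa to Aldoc) within each array, with 4 orbital captures left of 4 global captures and bars for mean and SD. The Pgam2 to Pgam1 and Eno3 to Eno1 ratios are lower in every orbital capture than in any global one, and the Aldoa to Aldoc ratios overlap.

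Of the 11 probe sets, all of which were in the series-wide test, 7 passed an adjusted p of 0.05 in limma with Benjamini-Hochberg adjustment over 9520 probe sets, where 7.41% of all probe sets passed. Because the genes were picked with this contrast in view, the count is given for orientation and nothing is read from it. The 5 lower were Fbp2, Tpi1, Pgam2, Eno3 and Pfkfb1 (3.5% of all probe sets passed as lower), and the 2 higher were Pgam1 and Eno1 (3.91% as higher). The same 7 were those without overlap between layers, which held for 14.1% of all probe sets (6.75% with orbital lower, 7.31% with orbital higher). The median difference over the 11 was -0.56, against 0.02 over all probe sets tested. Fbp2, Tpi1, Pgam1 and Eno1 passed under each of the 20 alternatives run for the test, whereas Eno3 passed under 12, Pgam2 under 17 and Pfkfb1 under 18. The alternatives rerun the contrast that chose the genes, so they show only how the calls depend on processing and on single captures. Without global capture 3 the series-wide count dropped to 461, against 705 with all captures, and 5 of the 11 probe sets passed, with Eno3 and Pfkfb1 lost. Pfkm passed only without global capture 2 (its brighter probe set). Aldoc passed only without global capture 1 (a difference of 1.46). Pgam2 was lost without global capture 1, and Eno3 also without orbital capture 1, 2 or 3 or global capture 4. With orbital capture 2 and global capture 3 both left out, Fbp2, Tpi1, Pgam1 and Eno1 passed.

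**Figure D3:**
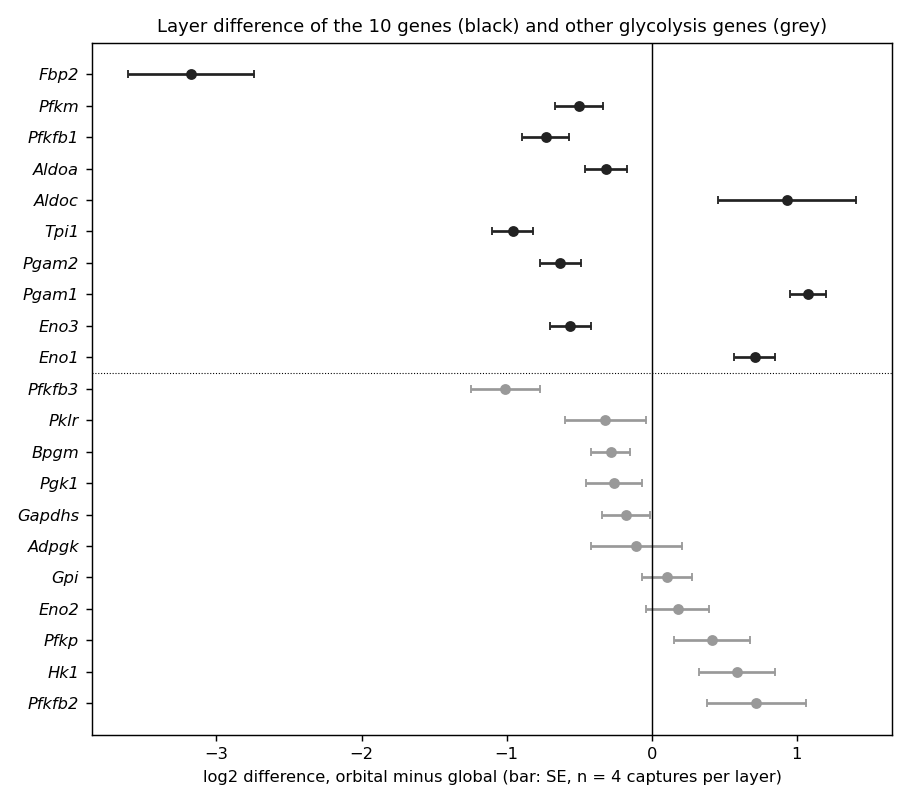
Log2 difference, orbital minus global, with SE (n = 4 captures per layer) for the 10 genes (black) and the other glycolysis genes tested (grey). Fbp2 stands furthest to the left at -3.18, Pgam1, Aldoc and Eno1 lie right of 0, and of the grey genes Pfkfb3 lies furthest left at -1.01.

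Within a layer, Pfkm, Aldoa, Tpi1, Pgam2 and Eno3 went up and down together from capture to capture. These 5 were grouped with the values in view. After each layer's mean was removed, Pearson's r over the 8 captures was between 0.59 and 0.96 for the 10 pairs among Pfkm, Aldoa, Tpi1, Pgam2 and Eno3, with a median of 0.80. The median was 0.29 over all pairs of the 154 tested probe sets at least as bright as the dimmest of these 5. Pgam1 had r between -0.20 and -0.06 with the same 5 genes, Eno1 between 0.06 and 0.73 and Fbp2 between 0.46 and 0.73. Pfkfb1 had r between -0.07 and 0.50 with them, and Aldoc between -0.10 (Eno3) and 0.63 (Tpi1). These are descriptions over captures that share arrays and scaling, with no test. Global capture 3 was the highest global capture for 8 of the 11 probe sets, and orbital capture 2 the lowest orbital capture for 10 of the 11, against 24.5% and 22.7% of all probe sets tested. Fbp2 deviated by -1.63 in orbital capture 2 and by 0.94 in orbital capture 4, and Aldoc by 1.56 in global capture 1. Fbp2 was under the highest Bacillus control in orbital capture 2, so its r with the other genes rests in part on dim signal.

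**Figure D4:**
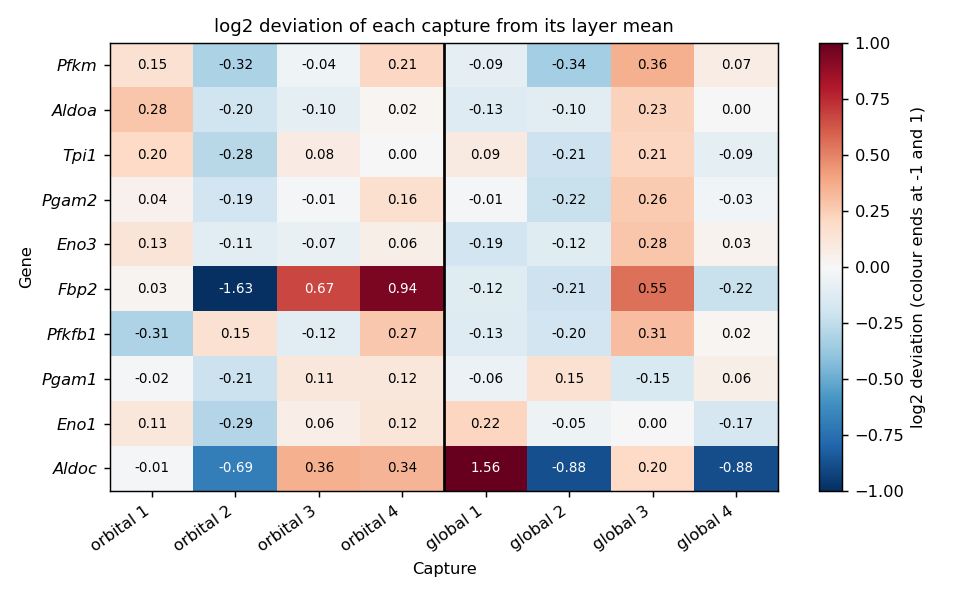
Log2 deviation of each gene's brightest probe set in each capture from the mean of its layer, with orbital captures left of global captures, red above and blue below the layer mean. The column of orbital capture 2 is below its layer mean for 9 of the 10 genes, with Pfkfb1 above, and the column of global capture 3 is above its layer mean for all but Pgam1 (below) and Eno1 (at the mean).

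Several measures of the whole captures stood at an end of their layer in orbital capture 2 and in global capture 3. The summed intensity of 7 skeletal muscle markers was lowest in orbital capture 2 (36788) and highest in orbital capture 4 (54535), and among global captures lowest in capture 2 (41419) and highest in capture 3 (61952). The sum of 6 fibroblast markers ran the opposite way, with 7506 in orbital capture 2, 4847 in orbital capture 4, 6712 in global capture 2 and 3554 in global capture 3. The signal of a Cre spike added to the hybridisation was 8966 in orbital capture 2 and 16303 in orbital capture 4, against 10073 in global capture 2 and 17208 in global capture 3. The remaining captures followed less closely. In global capture 4 the muscle sum was 60671, near that of capture 3, but Pfkm, Aldoa, Tpi1, Pgam2 and Eno3 deviated by -0.09 (Tpi1) to 0.07 (Pfkm). Among orbital captures, Aldoa, Tpi1 and Eno3 were highest in capture 1, and Pfkm and Pgam2 in capture 4. The part of these measures in the deviations was not tested. Between layers, 1 of the 7 skeletal muscle markers passed, as lower, and the median difference over the 7 was -0.34. The muscle sums overlapped (36788 to 54535 in orbital and 41419 to 61952 in global captures). Of the 6 fibroblast markers 0 passed, with a median of 0.17, and their sums overlapped (4847 to 7506 in orbital and 3554 to 6712 in global captures). The nerve and Schwann cell list (5 genes, 3 tested, 1 passing as higher, median 1.02) summed to 612 to 936 in orbital and 340 to 843 in global captures. The photoreceptor list (3 genes, 2 tested, 0 passing, median 1.89) summed to 239 to 1043 in orbital and 13.9 to 503 in global captures. The smooth muscle list (4 genes, 3 tested, 1 passing as lower, median -0.73) summed to 223 to 346 in orbital and 524 to 694 in global captures. Endothelial (4 genes), blood (4) and adipocyte (4, 1 tested) sums overlapped, with 0 passing by limma, and Lep was under the highest Bacillus control on every array. Their part in the Pgam1, Eno1 and Aldoc values was not tested. For Gapdh, the 3′ control divided by the 5′ control, a measure that rises as RNA is shortened, was between 5.81 and 12.9 in orbital and between 5.35 and 6.47 in global captures. The high values were those of orbital captures 3 (12.9) and 4 (8.64), while orbital captures 1 and 2 had 6.33 and 5.81. The part of this ratio in the layer differences was not tested.

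The titles carry a prefix, R2 or R3, whose meaning the labels do not give, with 2 captures of each layer under each. This split was not used to choose the genes, so it could be tested. The layer difference did not differ between prefixes past the threshold for any of the 11 probe sets (0 of 11, and 0% of all 9520, limma interaction term, Benjamini-Hochberg adjusted), and 290 probe sets had an unadjusted p under 0.05, with 0 of the 11 among them. Aldoc had the largest interaction, 1.39 ± 0.96 (SE, limma adjusted p = 1), with a difference of 1.63 under R3 and 0.24 under R2. The difference of Fbp2 was -2.54 under R3 and -3.81 under R2, an interaction of 1.27 ± 0.65 (SE, adjusted p = 1). The mutase isoforms kept their directions under each prefix, with Pgam1 at 1.24 under R3 and 0.92 under R2 and Pgam2 at -0.67 under R3 and -0.59 under R2. The level itself differed between prefixes for 0 of the 11 (0.0105% of all probe sets called). Fbp2 was the only 1 of the 11 with an unadjusted p under 0.05 in the limma fit, at 0.97 ± 0.36 for R3 minus R2 (adjusted p = 0.634). Of all probe sets tested, 7.15% had such a p, so nothing is read from it. The R2 values of Fbp2 include orbital capture 2, which read 9.5, under the highest Bacillus control of its array. Among measures of the whole captures, 2 split by prefix without overlap. The Cre spike signal was 8966 to 11572 under R2 and 12275 to 17208 under R3. The skeletal muscle marker sum was 36788 to 46275 under R2 and 47570 to 61952 under R3. What lies behind this split was not tested.

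Most of the other glycolysis genes tested did not pass. A list of 24 further glycolysis genes was compared, of which 15 had a probe set of their own and 11 were in the test. Of these 11, 1 fell, 0 rose and 10 did not pass, with a median of -0.105 (limma, all probe sets 7.41%). The gene that fell was Pfkfb3, a second enzyme that makes fructose 2,6-bisphosphate, with 36.0, 31.8, 50.6 and 32.3 in the orbital and 60.8, 76.2, 95.2 and 73.3 in the global captures (-1.01 ± 0.24, adjusted p = 0.0196). Its orbital mean (37.7) was under the intensity used as a filter, so it was in the test only through its global level. A second Pfkfb3 probe set gave 0.24 ± 0.26 (adjusted p = 0.655), and the call of the first was lost without orbital capture 2, without global capture 3, with both left out and with no filter (adjusted p between 0.0129 and 0.139 over the alternatives). With a filter at the 60th percentile it was not tested. The next smallest p-values belonged to Hk1, the hexokinase that starts glycolysis in most tissues (0.59 ± 0.26), Pfkfb2, a further enzyme of that family (0.72 ± 0.34), and Bpgm, the bisphosphoglycerate mutase of red cells (-0.28 ± 0.14), with adjusted p of 0.213, 0.239 and 0.25. Other probe sets of Pfkfb2 gave 0.21 and 0.49 in the test, and the dimmest was under the filter and not tested. Pgk1 and Gpi, chosen after their values were seen to fill in single steps of the pathway, differed by -0.26 ± 0.195 and 0.11 ± 0.17. A second Pgk1 probe set gave -0.23 ± 0.18, and the dimmest was under the filter and not tested. Gapdh has only control probe sets, of which the 3′ one averaged 3963 ± 1004 in orbital captures and 4500 ± 678 in global captures (SD, n = 4 each). In log2 the difference was -0.20 ± 0.21 for the 3′, -0.42 ± 0.27 for the middle and -0.67 ± 0.32 for the 5′ control. These SE come from the captures and not from limma, and the controls were not in the test.

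Of 14 genes for regulators of glycolytic or fibre metabolism, 9 had a probe set of their own and 8 were tested, of which 1 rose, 0 fell and 7 did not pass. Over all probe sets 3.91% passed as higher, and nothing is read from the count of 1 for the list as a whole. The gene that rose was Hif1a, the hypoxia-inducible factor that is known to switch on glycolytic genes when oxygen is low. It read 532.0, 856.2, 535.6 and 761.2 in the orbital captures, against 415.0, 350.5, 416.6 and 248.8 in the global captures, without overlap (0.90 ± 0.20, adjusted p = 0.0136 in limma). A second Hif1a probe set was dim (14.5 ± 8.09 in orbital captures and 6.1 ± 2.38 in global captures, SD, n = 4 each) and was not tested. Of 20 alternatives, the call was lost with title prefix and number as a replicate block (limma adjusted p = 0.053, range over alternatives 0.00995 to 0.053). Ppargc1a, a coactivator of mitochondrial genes, differed by 0.92 ± 0.35 (adjusted p = 0.145), and its orbital captures ranged from 36.8 to 121.4, against 33.2 to 64 in global captures.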

How the data were processed

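RNA from laser captures of the 2 muscle layers was amplified and put on 1-colour Affymetrix RAE230A arrays, per the labels. The authors deposited linear intensity values, 1 for each probe set on each array. The software that made them is not given in the sources used here. Trimmed means (2%) of the 8 arrays differed by 0.00389%, so the authors had scaled the arrays and the values were used as deposited. The number of arrays limits the precision. Samples were grouped by the source label, 4 per layer, and numbered in accession order.

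The array has 15923 probe sets. Without its 57 controls 15866 remain, and 9520 were tested, those whose mean log2 value reached the 40th percentile, which is 39.4 in intensity. The fit used lmFit, then eBayes with a trend on intensity (limma 3.58.1, R 4.3.3), run on log2(intensity + 1). Layer was the single term, and p-values were Benjamini-Hochberg adjusted with 0.05 as threshold. A further fit had layer, title prefix and their interaction, and the prefix difference came from a fit of layer and prefix. Each gene was taken by its brightest probe set, and further probe sets of the genes given values in the text are mentioned beside them. Names come from the annotation of the array platform and can be old. It gave 1 symbol for 12783, several for 312 and none for 2771 probe sets, and the symbols of all 10 genes are unchanged in the current RefSeq table. Promoter sequences are RefSeq's (GRCr8). Gene lists and members were chosen with earlier results of these data known. Text names all 10 genes, all passing genes of the other lists with the smallest p-values (4 and 2), and the 5 probe sets whose log2 values correlate most with Fbp2.

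The fit was tested on simulated data. The alternatives were other normalizations (quantile, cyclic loess), pseudocounts (16, 64) and filters (none, 60th percentile), eBayes without trend or robust, title prefix alone or with number as a replicate block, orbital captures 3 and 4 averaged, a mean over a gene's probe sets, and each capture left out. Leaving out orbital capture 2 and global capture 3 together was chosen after seeing the data. Orbital captures 3 and 4 have similar titles but differed as much as other orbital pairs (SD of log2 differences 0.458, others 0.425 to 0.449). Both were counted, but that SD also holds amplification and array noise and cannot show that they are separate captures. If they repeat the same material, n = 4 is too high for the orbital layer. With both averaged, 610 probe sets and 7 of the 11 passed.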

Additional observations from a re-analysis of the deposited data

Results flagged for a closer look

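Of 30 groups of 4 captures compared by Dixon's ratio, 2 held a capture that stood apart, where chance flags about 1 in 20 groups. Fbp2 in the global layer was flagged because global capture 3 (429.9) stood above the other global captures (250.8 to 268.5), with a ratio of 0.874 on the log2 scale. Without that capture the Fbp2 difference was -2.99. Eno1 in the orbital layer was flagged because orbital capture 2 (262.5) stood below the others (336.1 to 349.5), with a ratio of 0.863. Without that capture the Eno1 difference was 0.81.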

How the results depend on the processing

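The 210 layer differences of the 10 genes under 21 alternatives kept their sign, and 209 moved by less than the SD within layers. The exception was Fbp2, at -1.83 with a pseudocount of 64. Many of the differences could not move that far. The filters, the eBayes settings and the block by prefix alone leave a difference unchanged, and a mean over probe sets changes only Pfkm. Leaving out 1 capture cannot shift a difference by that SD. The Pgam2 to Pgam1 ratio difference was between -1.83 and -1.57 over 15 alternatives, that of Eno3 to Eno1 between -1.41 and -1.12, and that of Aldoa to Aldoc between -1.81 and -0.64. On leaving out 1 capture, the count over all probe sets was 461 to 725, that of the 11 probe sets 5 to 8, and that of other glycolysis genes 0 to 1. With orbital capture 2 and global capture 3 both left out, which leaves 3 captures per layer, 394 probe sets, 4 of the 11 and 0 other glycolysis genes passed. The other glycolysis count was also 0 with no filter and with the 60th percentile, where Pfkfb3 was no longer tested. With title prefix as a replicate block 745 probe sets and 7 of the 11 passed, and with prefix and number as a replicate block 646 and 7, with 1 other glycolysis gene each time. The prefix and number gave cross-layer pairs whose deviations correlated at 0.095, 0.111, 0.086 and 0.035. All cross-layer pairs of the same prefix lay between -0.005 and 0.111, and those of different prefix between -0.134 and 0.045. These values cannot settle whether captures are paired, and the main fit used no pairing. Dim signal limits Fbp2 in orbital and Aldoc in global captures.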

Other observations

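The genes whose values across the 8 captures followed Fbp2 most closely were not glycolytic enzymes. Among 7972 other named probe sets the 5 with the highest Pearson correlation to Fbp2 were those of R3hdm1, Cars1, Cgrrf1, Ets2 and Ttn, with r between 0.966 and 0.976 over the log2 values of 8 captures. After the layer means were removed r was between 0.805 and 0.862, where the 95th percentile over all 7972 was 0.66. These are the highest of many correlations over few captures, and no test was made. The 5 were picked by r over the same captures, so a high r after removal of the layer means follows in part from the choice. The largest deviation of Fbp2 from its layer mean was -1.63, in orbital capture 2. There it read 9.5, under the highest Bacillus control, so these r rest in part on dim signal. Ttn, the giant spring protein of the sarcomere, averaged 5120 ± 689 in orbital captures and 8302 ± 905 in global captures (SD, n = 4 each), which is -0.70 ± 0.15 (SE) in log2. Ets2, a transcription factor, averaged 354 ± 32.5 in orbital captures and 532 ± 23.0 in global captures (-0.59 ± 0.12). All 5 differed by far less than Fbp2, from -0.70 to -0.39.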
